A study of Arabidopsis thaliana with 12 samples.

Results

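Of 3687 gene bins that the authors listed for changed splicing in picln-1 or prmt5-5 seedlings of Arabidopsis thaliana, 206 carried an exon label, and these 206 are described here. Bins are the stretches into which annotated splice sites cut a gene. An exon label marks a stretch that annotated transcripts keep, and most of the 206 also carried the name of an annotated event: an intron that some transcripts retain (151 bins), a cassette exon that some skip (14), the stretch between alternative 5' splice sites (24) or alternative 3' splice sites (10). The remaining 7 were exon bins with no event name. The members were taken by their label alone, as the union of the bin tables of both mutants, and they lie in 194 genes. The other 3481 listed bins carried an intron label. Event names of 26 bins carried a star that the sources used here do not explain, and starred bins were kept with their unstarred kind.

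The groups were seedlings of the picln-1 mutant, the prmt5-5 mutant and wild type (WT), with 4 libraries of polyadenylated RNA each. All were 10 days old and grown at 22 °C in days of 12 h light and nights of 12 h, and the labels name this light regime, over 9 days, as the treatment. The design line of the series speaks of cold, which no label of a sample carries, so the growth conditions are given as the labels have them. Each mutant is a single line, and both were compared with the same WT libraries. Whether the 4 libraries of a genotype were grown apart is not stated in the labels, so the spread behind the authors' p-values may be technical.

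pICln and PRMT5 both act before splicing starts. pICln holds Sm proteins during the assembly of the small nuclear ribonucleoproteins (snRNPs) that make up the spliceosome, and PRMT5 dimethylates arginines of Sm proteins. A 5' splice site is chosen by base pairing with the U1 snRNA and later the U6 snRNA over the last exon bases and the first intron bases, and where several sites compete, the pairing helps to set which is used. In plants, retained introns and alternative sites are the common kinds of alternative splicing, and many of the affected transcripts carry an early stop codon.

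The sequences of neighbouring 5' splice sites are shown first, since the exon parts between them moved in prmt5-5 with the site they belong to. Each line reads 5' to 3', from the last 9 exon bases before the upstream site to the ninth intron base after the downstream site. Capitals mark the first 2 intron bases at each site.
AT3G07760: gtcgcttcgGTagGTatttcct
AT5G17530: tggaacaatGTagGTacttggt
AT4G16695: taaacagacGTagGTgtgcttt
AT4G32900: gcaagaaatGTaagcagGTgaaaatc
CHR17: gatgattatGTgagctcgGTactcaaa
PIN7: ctcaaaatgGTgaaaacaaagGTttttaac
RCA: ctttctacgGTaaaacagagGTttgaaac
SEC3A: ttcagccgtGTaGTccgtcta
AT5G40500: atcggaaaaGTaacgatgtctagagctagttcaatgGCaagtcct
The first 7 were spliced more at the upstream site in prmt5-5, and SEC3A and AT5G40500 more at the downstream site, which in AT5G40500 begins with GC. They lie on TAIR10.1 at chr3:2476564-2476585 (plus strand), chr5:5781872-5781893 (plus), chr4:9394561-9394582 (plus), chr4:15879529-15879554 (minus), chr5:6196318-6196344 (minus), chr1:8182197-8182226 (minus), chr2:16571171-16571199 (minus), chr1:17462216-17462236 (plus) and chr5:16228014-16228058 (plus), in the order of the lines. Sequences here and below are from the RefSeq genome.

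The 5' splice sites of retained introns are shown next, to show how far they stand from the usual form. Each line gives the last 3 exon bases and the first 6 intron bases, with the first 2 intron bases in capitals. The line named consensus holds the most frequent base at each position over 136308 annotated introns. The next 5 introns were retained more in prmt5-5, SUO and SYD more in picln-1, and U1-70K less in picln-1.
consensus: aagGTaagt
AT4G03820: tcaGTaatt
GLX2-1: aggGTttaa
AT3G53970: cccGTaaaa
PHOT2: cctGTatag
YAB3: gctGTaaat
SUO: tggGTgagt
SYD: aagGTacac
U1-70K: cggGTaggt

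The exons of FC2, XBAT35 and RAP2.7 are shown for the exon results. Capitals mark the exon, and the 8 lower-case bases on either side are intron. FC2 and XBAT35 were the exon bins whose inclusion lay furthest below WT among the bins listed in picln-1, among those with no event name and among the skipped exons, and RAP2.7 was a skipped exon listed as higher in both mutants.
FC2: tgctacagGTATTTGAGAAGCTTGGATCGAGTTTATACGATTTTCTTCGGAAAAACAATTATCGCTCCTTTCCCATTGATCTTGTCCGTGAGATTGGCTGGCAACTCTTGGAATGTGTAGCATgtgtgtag
XBAT35: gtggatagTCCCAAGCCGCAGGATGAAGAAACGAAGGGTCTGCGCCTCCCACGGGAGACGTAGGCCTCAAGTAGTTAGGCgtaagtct
RAP2.7: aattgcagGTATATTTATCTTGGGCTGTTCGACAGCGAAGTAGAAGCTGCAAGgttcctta

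Among the listed bins, the direction of the change differed by kind of event. Introns were mostly retained more in the mutants, whereas exon bins with no event name were included less, and cassette exons and alternative sites moved both ways. In picln-1, 56 exon-labelled bins were listed, of which 40 had a higher and 16 a lower retained or included share than WT. Over all 112984 bins tested in that comparison, the authors listed 0.479%, with 0.428% higher and 0.0504% lower. These last shares, and those for prmt5-5 below, go by the direction of bin usage, not of the retained or included share. In prmt5-5, 174 exon-labelled bins were listed, 140 with a higher and 34 with a lower share. Over all 118209 bins tested 2.88% were listed, with 2.82% higher and 0.0601% lower in usage. How many exon-labelled bins were tested is not known, so the share of them that was listed could not be set against these values.

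By event, the retained introns listed in picln-1 were higher in 35 and lower in 3, and those listed in prmt5-5 higher in 126 and lower in 4. Alternative 5' sites listed in prmt5-5 were higher in 5 and lower in 15, cassette exons higher in 5 and lower in 7, and alternative 3' sites higher in 4 and lower in 3. In picln-1 the same counts were 2 and 3 for alternative 5' sites, 2 and 4 for cassette exons, and 1 and 2 for alternative 3' sites. All 7 bins with no event name were lower in the mutant that listed them. Intron-labelled bins were nearly all higher, 443 of 485 in picln-1 and 3191 of 3232 in prmt5-5. A bin is listed only when its share moved by more than 5 points, so a bin near 0% in WT can only be listed as higher. Likewise, a bin near 100% in WT can only be listed as lower. The 7 bins with no event name had WT shares from 67.1% to 100%, with a median of 86.4%. Those near 100%, in FC2, AT5G05310 and AT3G59300, could only be listed as lower. The others, in AT1G25175, AT3G33530, AT1G54730 and AT4G33625, had room to move both ways. Of the retained introns listed in prmt5-5, 50 of 130 were under 5% in WT, against 2342 of 3232 intron-labelled bins. Among bins above 10% in WT, which had room to move both ways, 48 exon-labelled introns were higher in prmt5-5 and 4 lower, while intron-labelled bins were 343 higher and 39 lower. No test was made of these counts, since every listed bin had already passed the authors' limits.

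**Figure D1:**
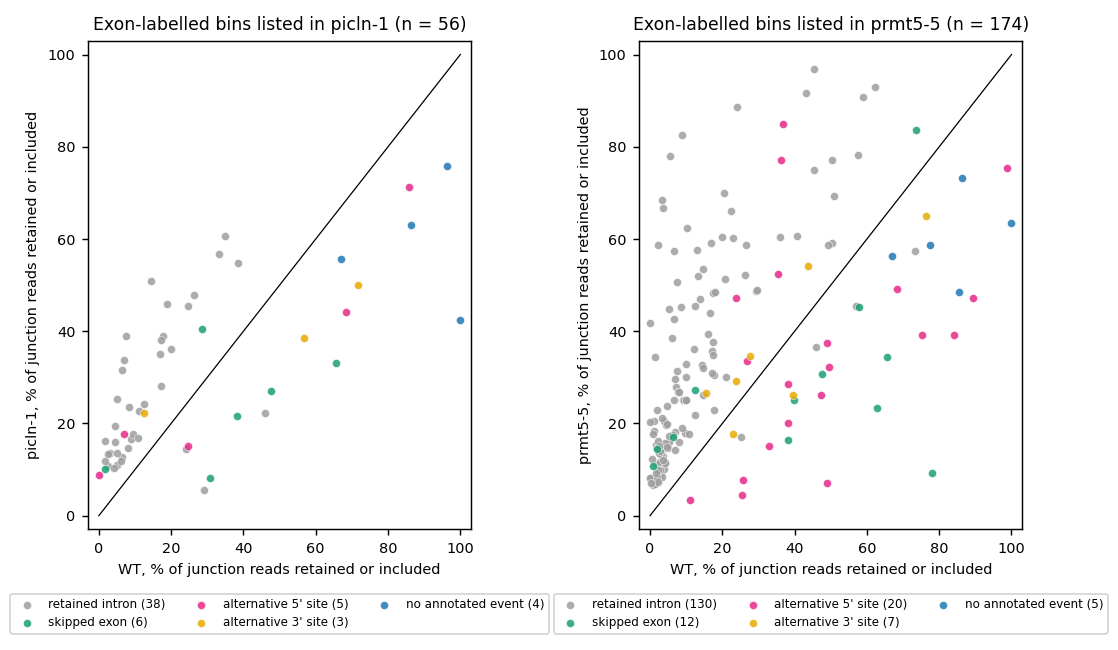
Retained or included share of junction reads in the mutant (vertical axis, %) against WT (horizontal axis, %), for the 56 exon-labelled bins listed in picln-1 (left) and the 174 listed in prmt5-5 (right). Each point is a bin, coloured by event, and the diagonal marks equal shares: most retained introns lie above it, and all bins with no annotated event lie below it.

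Retained introns in prmt5-5. Retention became the main form for some of these introns: 33 of the 130 listed introns had a retained share of 50% or more in prmt5-5, whereas 9 did in picln-1 and 8 in WT. The median over the 130 introns was 26.5% in prmt5-5 and 10.8% in picln-1, against 7.42% in WT. These introns were listed by their change in prmt5-5, and 126 of the 130 moved up. The higher count and median in prmt5-5 therefore follow in part from the choice of bins. The widest difference was in AT4G03820, which codes for a transmembrane protein, with 82.6% in prmt5-5 and 6.90% in picln-1, against 8.77% in WT. Intron 1 of GLX2-1, a glyoxalase, was retained at 77.9% in prmt5-5 and 8.47% in picln-1, against 5.56% in WT. Both introns were thus removed from most transcripts in picln-1 and WT and kept in most in prmt5-5.

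AT3G53970, a proteasome inhibitor-like gene, stood at 68.5% in prmt5-5 and 6.74% in picln-1, against 3.31% in WT. Intron 20 of PHOT2, a blue-light receptor, stood at 66.7% in prmt5-5 and 4.15% in picln-1, against 3.45% in WT. Intron 1 of YAB3, a transcription factor of organ polarity, stood at 58.7% in prmt5-5 and 3.65% in picln-1, against 2.18% in WT. In these 3 introns the picln-1 share lay within 5 points of WT. The authors' deposited table gives a log2 change of bin usage of 3.21 for PHOT2 in prmt5-5 (adjusted p = 6.11e-121) and of 4.19 for YAB3 (adjusted p = 2.25e-78). Their coordinates are chr5:23529219-23529316 and chr4:74868-74975 (TAIR10), both introns lie within the coding sequence, and read in frame each meets a stop codon.

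Other introns were already common in WT. MGP2, a gene needed for pollen function, retained its last intron at 91.6% in prmt5-5 and 50.5% in picln-1, against 43.1% in WT. At the other end, intron 1 of ACO1, an aconitase, stood at 17.6% in prmt5-5 and 0.997% in picln-1, against 0.926% in WT. CER1, an enzyme of wax alkane synthesis, stood at 42.7% in prmt5-5 and 5.56% in picln-1, against 6.49% in WT. The rise was therefore seen across the range of WT levels, within the limits that a listed bin must pass.

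Introns that fell in prmt5-5 numbered 4 of 130. MAF1, a repressor of flowering, was among them, with 17.0% in prmt5-5 and 32.7% in picln-1, against 25.1% in WT. AT5G14550 stood at 45.5% in prmt5-5 and 48.0% in picln-1, against 57.0% in WT, and was the member nearest to the limit on adjusted p in prmt5-5 (adjusted p = 0.147 in the authors' deposited table). PAI2, with 7.20% in prmt5-5 and 5.32% in picln-1 against 2.11% in WT, was the member nearest to the limit on the change, at 5.09 points. Bins just past these limits were not analysed here.

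Retained introns in picln-1. The 38 listed introns had a median of 22.4% in picln-1 and 16.8% in prmt5-5, against 9.19% in WT. They were listed by their change in picln-1, and 35 of the 38 moved up. The higher median in picln-1 therefore follows in part from the choice of bins. The last intron of SUO, a regulator of microRNA-guided translation, showed the widest difference, with 50.8% in picln-1 and 22.0% in prmt5-5, against 14.5% in WT. The last intron of SYD, a chromatin remodelling ATPase, stood at 38.9% in picln-1 and 15.9% in prmt5-5, against 7.41% in WT. AT5G55100, which codes for a protein with the SWAP domain of splicing regulators, stood at 45.9% in picln-1 and 23.8% in prmt5-5, against 18.9% in WT. AT1G79090 stood at 33.8% in picln-1 and 13.1% in prmt5-5, against 7.04% in WT. In all 4 introns the prmt5-5 share lay between those of picln-1 and WT, and none of the 4 was listed in prmt5-5.

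The intron of U1-70K was among the 3 that fell in picln-1. U1-70K is the U1 snRNP protein that helps to hold the particle at the 5' splice site, and its intron 6 of 8 is a 909-base intron that WT seedlings often keep (chr3:18827440-18828348, TAIR10, minus strand). It was retained at 5.50% in picln-1 and 33.2% in prmt5-5, against 29.0% in WT. The authors' deposited table gives a log2 usage change of -2.37 for it in picln-1 (adjusted p = 2.17e-80). U1-70K was also the only gene with an exon-labelled bin listed in picln-1 whose expression was listed there, with a log2 change of -0.83 in the authors' deposited table. AT1G22140, with 45.5% in picln-1 and 31.1% in prmt5-5 against 24.7% in WT, lay nearest to the limit on adjusted p (adjusted p = 0.148 in the authors' deposited table), and AT5G01010 nearest to the limit on the change, at 5.80 points.

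Bins listed in both mutants. There were 24 such bins, which is 42.9% of the 56 in picln-1 and 13.8% of the 174 in prmt5-5. Over all listed bins, 260 were in both lists, 48.1% of the picln-1 list and 7.63% of the prmt5-5 list. Because both lists rest on the same WT libraries, these shares are given without a test. Of the 24 bins, 16 were higher in both mutants, 7 lower in both, and 1 opposite. The 7 include adjoining bins of DYL1, a cassette exon and an alternative 5' stretch, which are not separate loci. Among the introns, CGL1, which starts the formation of complex N-glycans, stood at 47.8% in picln-1 and 52.2% in prmt5-5, against 26.3% in WT. CPK28, a calcium-dependent kinase, stood at 13.4% in picln-1 and 15.03% in prmt5-5, against 2.44% in WT. SKIP5 stood at 11.9% in picln-1 and 15.3% in prmt5-5, against 1.73% in WT, and BLH3, a homeodomain factor, at 19.5% in picln-1 and 19.6% in prmt5-5, against 4.35% in WT. For these genes the shares of the mutants lay within 5 points of each other.

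In other introns prmt5-5 stood well above picln-1. The MATE transporter gene AT4G21910 stood at 35.01% in picln-1 and 59.0% in prmt5-5, against 16.9% in WT. The kelch-repeat gene AT4G39560 stood at 36.1% in picln-1 and 60.3% in prmt5-5, against 20% in WT. AT3G58640, a kinase gene, stood at 24.3% in picln-1 and 45.5% in prmt5-5, against 12.5% in WT. The reverse order held in AT2G04039, with 25.4% in picln-1 and 14.7% in prmt5-5, against 5.05% in WT, and in AT1G50440, a RING-finger gene, with 38.9% in picln-1 and 30.6% in prmt5-5, against 17.8% in WT. The remaining introns higher in both, in AT3G56590, IMPA-2, AT1G14270, AT1G24040, AT2G44920 and the RNA-binding protein gene AT5G59950, ranged between 10.3% and 38.1% in picln-1 and between 11.7% and 35.8% in prmt5-5, against 2.62% to 17.2% in WT.

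The opposite bin was intron 1 of AT2G35390, a phosphoribosyltransferase gene (chr2:14897108-14897437, TAIR10, minus strand). It was retained at 14.6% in picln-1 and 88.6% in prmt5-5, against 24.04% in WT. The authors' deposited table gives log2 usage changes of -0.60 in picln-1 (adjusted p = 0.00657) and 1.63 in prmt5-5 (adjusted p = 7.17e-43). The last intron of AT1G54730, a transporter gene, was the intron lower in both, with 22.3% in picln-1 and 36.5% in prmt5-5, against 45.9% in WT.

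**Figure D2:**
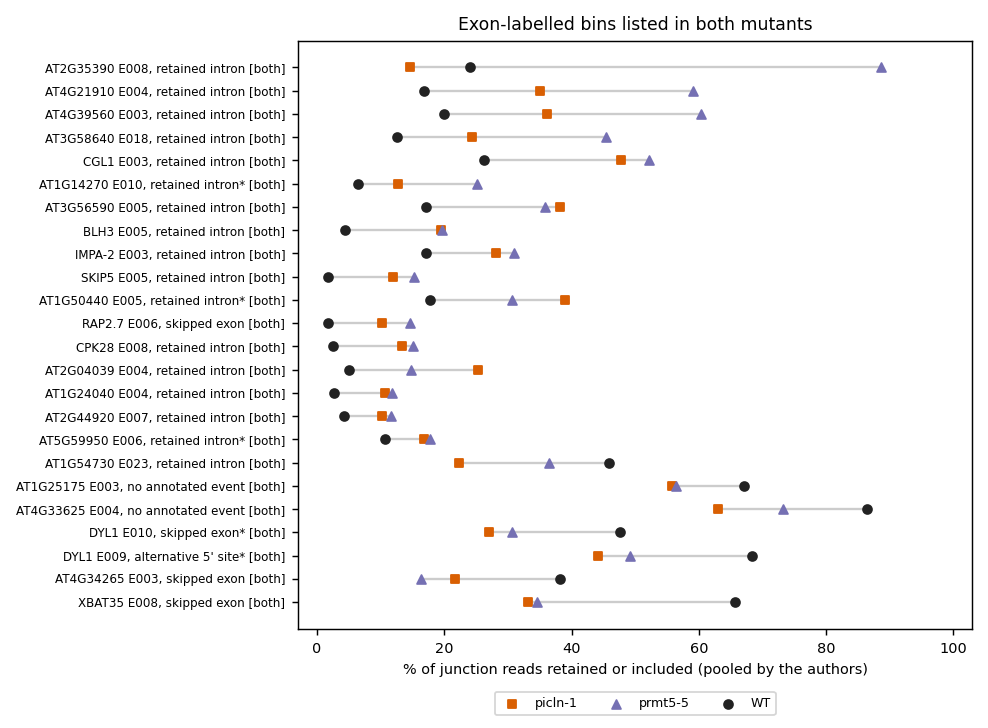
The 24 exon-labelled bins listed in both mutants, ordered by the prmt5-5 difference, with the retained or included share (%) in picln-1 (squares), prmt5-5 (triangles) and WT (circles). The 16 bins higher in both have WT at the left end of the line, the 7 lower in both have WT at the right end, and in AT2G35390 WT lies between the mutants, at 24.04%.

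For the bins listed in a single mutant, the other mutant's share was read side by side. The 150 bins listed only in prmt5-5 differed from WT by a median of 17.2 points there and of 3.34 points in picln-1, where 88 were within 5 points of WT. The 32 bins listed only in picln-1 differed from WT by a median of 14.8 points there and of 4.62 points in prmt5-5, where 17 were within 5 points. The listed side is the larger by choice of the bins, so these medians are a description. In 10 bins listed only in prmt5-5 and in 1 listed only in picln-1, the other mutant lay more than 5 points on the opposite side of WT. RBP47C, an RNA-binding protein, was among them, with 43.9% retention in prmt5-5 and 11.4% in picln-1, against 16.7% in WT.

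Alternative 5' splice sites. The share of such a bin counts transcripts that include the stretch between the sites, so a lower share means more splicing at the upstream site. Of 20 bins listed in prmt5-5, 15 were lower, with a median of 28.5% in prmt5-5 and 44.2% in picln-1, against 48.9% in WT. The 5 higher bins had a median of 52.4% in prmt5-5 and 30.7% in picln-1, against 35.4% in WT. Both splice sites of a bin were annotated in 18 of the 20, and among these 14 were spliced more upstream and 4 more downstream in prmt5-5. In 10 of the 18 pairs the sites were a multiple of 3 bases apart.

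The neighbouring sites of AT3G07760, AT5G17530 and AT4G16695 printed above are 4 bases apart. AT3G07760, a sterile alpha motif gene, included the stretch at 7.0% in prmt5-5 and 38.5% in picln-1, against 48.9% in WT. AT5G17530, a phosphoglucosamine mutase gene, included it at 4.42% in prmt5-5 and 35.1% in picln-1, against 25.3% in WT. AT4G16695 included it at 26.1% in prmt5-5 and 44.2% in picln-1, against 47.2% in WT. In prmt5-5 all 3 therefore used the upstream site in more transcripts than in WT.

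PIN7 and PIN4 are auxin efflux carriers, and in each the alternative stretch is 12 bases long. PIN7 included it at 7.76% in prmt5-5 and 23.1% in picln-1, against 25.6% in WT. PIN4 included it at 37.5% in prmt5-5 and 51.9% in picln-1, against 48.9% in WT. RCA, the activase of Rubisco whose long and short forms arise by alternative splicing, included its 11-base stretch at 32.2% in prmt5-5 and 52.3% in picln-1, against 49.6% in WT. The intron that follows the RCA stretch was a member too, retained at 13.1% in prmt5-5 and 2.17% in picln-1, against 2.97% in WT. The RCA stretch and intron adjoin, and their changes were not told apart.

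The widest falls were in VAB2, a vacuolar ATPase subunit, with 39.2% in prmt5-5 and 67.6% in picln-1, against 84.1% in WT, and in TAF6B, a general transcription factor, with 47.3% in prmt5-5 and 79.2% in picln-1, against 89.2% in WT. After these and AT3G07760, NOXY2 had 39.3% in prmt5-5 and 61.7% in picln-1, against 75.2% in WT. The widest rise, and the widest difference of any alternative 5' site, was in AT5G40500, with 85.05% in prmt5-5 and 28.4% in picln-1, against 36.8% in WT. FAC1, an AMP deaminase, included its stretch at 77.1% in prmt5-5 and 37.2% in picln-1, against 36.3% in WT. SEC3A, a subunit of the exocyst, stood at 47.1% in prmt5-5 and 24.4% in picln-1, against 23.8% in WT.

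The other members had shares across the whole range. AT3G10770 included its stretch at 75.4% in prmt5-5 and 90.2% in picln-1, against 98.8% in WT. CHR17, a chromatin remodeller, included it at 20.1% in prmt5-5 and 36.4% in picln-1, against 38.1% in WT. AT4G32900, a peptidyl-tRNA hydrolase gene, included it at 15.1% in prmt5-5 and 35.1% in picln-1, against 33.0% in WT. The falls in AT1G67700, at 28.5% in prmt5-5 and 33.3% in picln-1 against 38.1% in WT, and in the ribosomal protein gene AT3G05560, at 3.48% in prmt5-5 and 10.1% in picln-1 against 11.2% in WT, were under 10 points. CKB3, a casein kinase subunit, rose to 52.4% in prmt5-5, with 50.8% in picln-1, against 35.4% in WT. AT5G08450 rose to 33.6% in prmt5-5, with 30.7% in picln-1, against 26.9% in WT. Neither 5' splice site of the AT5G08450 stretch is annotated, and the downstream end has CA in place of GT. Its share is therefore not read as a choice between sites.

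The bases of the competing sites were read for what they share. The fifth intron base is G in 49.5% of annotated introns and pairs with both U1 and U6 snRNA. In 10 of the 18 annotated pairs listed in prmt5-5, exactly 1 of the sites had G there, and the site used more in prmt5-5 was the site with the G in 9 of them. AT3G07760, AT5G17530, AT4G32900 and CHR17 are upstream sites of this kind, and SEC3A and AT5G40500 are downstream ones. Since 14 of the 18 pairs were spliced more upstream, the G at an upstream site was not told apart from that shift. The exception was RCA, in which the site used less had the G. By a score over all 9 bases, in bits relative to equal base shares, the site used more was the higher-scoring in 11 of 18 and the lower-scoring in 7. In AT3G07760 and AT5G17530, whose sites are 4 bases apart, the fifth base of the upstream site is the G of the downstream GT. In SEC3A, with sites 3 bases apart, it is the T of the downstream GT. In these pairs the spacing of the sites thus sets the upstream base, and they are no independent reading of it. The count at the fifth base was chosen after the values were seen and was not tested.

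In picln-1, 5 alternative 5' sites were listed, 2 higher and 3 lower. DYL1, a dormancy-associated gene, was the sole member also listed in prmt5-5, with 44.2% in picln-1 and 49.3% in prmt5-5, against 68.4% in WT. The DYL1 stretch adjoins the DYL1 cassette exon given below, and its upstream site is not annotated. Its fall was not told apart from that of the exon. SNRK2.2, a kinase of abscisic acid signalling, included a 21-base stretch at 8.89% in picln-1 and 0.94% in prmt5-5, and was listed at 0% in WT. WLIM2b stood at 17.6% in picln-1 and 3.07% in prmt5-5, against 6.92% in WT. ARF1, an auxin response factor, stood at 71.2% in picln-1 and 85.1% in prmt5-5, against 85.9% in WT, and UEV1D-4 at 15.04% in picln-1 and 13.01% in prmt5-5, against 24.7% in WT.

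**Figure D3:**
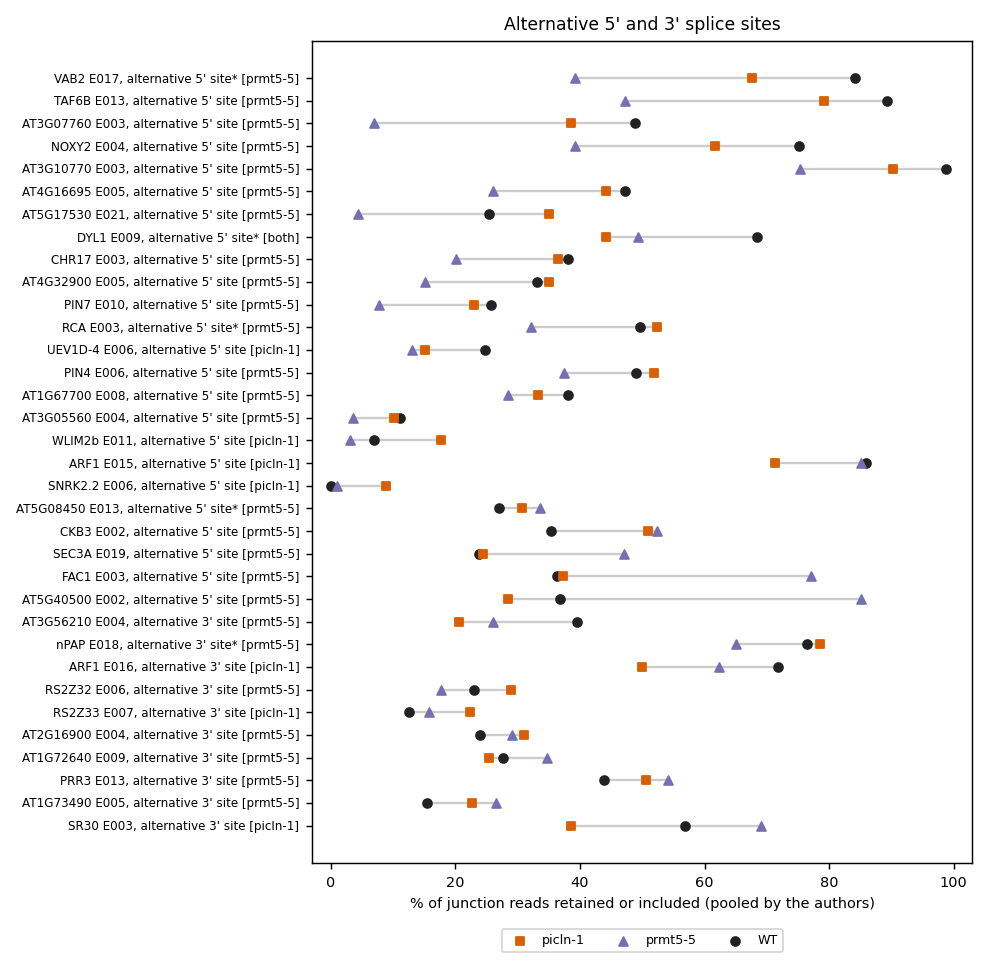
Included share (%) of the stretch between alternative 5' splice sites (upper 24 lines) and alternative 3' splice sites (lower 10 lines) in picln-1 (squares), prmt5-5 (triangles) and WT (circles), with the mutant that listed the bin in brackets. For most 5' sites listed in prmt5-5 the triangle lies left of the other symbols, down to 3.48% in AT3G05560, and in FAC1 and AT5G40500 it lies far to the right.

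Alternative 3' splice sites. These were 10 bins, none listed in both mutants. The members with the longest stretches are in genes of SR proteins, which bind exon sequences and help to recruit the splicing machinery. SR30 included a 338-base stretch at 38.5% in picln-1 and 69.0% in prmt5-5, against 56.9% in WT, so the mutants lay on opposite sides of WT. RS2Z33 included its 218-base stretch at 22.3% in picln-1 and 15.7% in prmt5-5, against 12.5% in WT. Its paralogue RS2Z32 included a stretch of the same length at 17.7% in prmt5-5 and 28.9% in picln-1, against 22.9% in WT. SR30 and RS2Z33 were listed in picln-1 alone and RS2Z32 in prmt5-5 alone. RS2Z32 and RS2Z33 are paralogues, and their values are uncertain where the authors' counting could share reads between them.

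ARF1 had its alternative 3' stretch of 9 bases in the exon after its alternative 5' stretch, and included it at 50% in picln-1 and 62.4% in prmt5-5, against 71.8% in WT. The ARF1 stretches flank the same intron and are not separate loci. PRR3, a pseudo-response regulator of the circadian clock, stood at 54.1% in prmt5-5 and 50.6% in picln-1, against 43.8% in WT. AT1G73490, an RNA-binding protein gene, stood at 26.6% in prmt5-5 and 22.6% in picln-1, against 15.5% in WT. nPAP, a nuclear poly(A) polymerase, stood at 65.1% in prmt5-5 and 78.5% in picln-1, against 76.5% in WT. Neither 3' splice site of the nPAP stretch is annotated. The remaining members, AT2G16900 and AT1G72640, were higher in prmt5-5, and AT3G56210 stood at 26.1% in prmt5-5 and 20.5% in picln-1, against 39.5% in WT. The downstream site of the AT3G56210 stretch is not annotated and ends in TG in place of AG. AT3G56210 was the only one of the 206 bins whose usage and share moved in opposite directions: the authors' deposited table gives a log2 usage change of 0.88 in prmt5-5.

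Cassette exons. The annotation held an intron that skips the exon for all 14, and 7 were a multiple of 3 bases long. In the authors' lists, 3 of them were lower in both mutants. The 72-base exon 8 of XBAT35, a ubiquitin ligase with ankyrin repeats, was included at 33.2% in picln-1 and 34.5% in prmt5-5, against 65.7% in WT (chr3:8323099-8323170, TAIR10). The authors' deposited table gives log2 usage changes of -0.80 in picln-1 (adjusted p = 9.92e-07) and -0.70 in prmt5-5 (adjusted p = 8.18e-06). AT4G34265 was included at 21.6% in picln-1 and 16.3% in prmt5-5, against 38.3% in WT, and DYL1 at 27.1% in picln-1 and 30.7% in prmt5-5, against 47.7% in WT. The 45-base exon 6 of RAP2.7, an AP2-type repressor of flowering, rose in both, to 10.1% in picln-1 and 14.5% in prmt5-5, against 1.79% in WT.

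The widest fall of the cassette exons was in AT5G05550, a DNA-binding protein gene, with 9.24% in prmt5-5 and 31.0% in picln-1, against 78.1% in WT. It was listed in prmt5-5 alone. AT5G53850, a hydrolase gene, was included at 23.4% in prmt5-5 and 38.6% in picln-1, against 62.7% in WT. In these exons the unlisted mutant also lay more than 20 points under WT. PRP39, a U1 snRNP-associated factor, fell in picln-1 alone among the listed calls, with 8.26% in picln-1 and 30.7% in prmt5-5, against 30.8% in WT.

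Several cassette exons rose in prmt5-5. The exon of SR34a, an SR protein, was included at 27.3% in prmt5-5 and 8.37% in picln-1, against 12.4% in WT. SR45a, an SR-like protein, stood at 83.5% in prmt5-5 and 65.4% in picln-1, against 73.5% in WT. The 17-base exon of NEK2, a NIMA-related kinase, stood at 10.8% in prmt5-5 and was listed at 0% in picln-1, against 0.72% in WT. The exon of PP5.2, a protein phosphatase, stood at 17.1% in prmt5-5 and 7.89% in picln-1, against 6.40% in WT. All 4 exons rose past the authors' limits in prmt5-5 and not in picln-1, where SR34a and SR45a lay below WT. NEK2 was near 0% in both picln-1 and WT, so no direction is read for it there. RS40, another SR protein, moved down, with 25.1% in prmt5-5 and 33.8% in picln-1, against 39.8% in WT, and AT1G28395 did too, with 45.2% in prmt5-5 and 49.1% in picln-1, against 57.7% in WT. The exon of AT2G30600, a BTB/POZ domain gene, was listed in picln-1 alone, with 40.5% in picln-1 and 45.7% in prmt5-5, against 28.4% in WT.

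Exon bins with no event name. FC2, a LAMMER-type kinase also called AFC2 that phosphorylates SR proteins, had the widest difference of all exon-labelled bins in picln-1. The 115 bases of its exon 6 (chr4:12755932-12756046, TAIR10, minus strand) were included at 42.4% in picln-1 and 50.5% in prmt5-5, against 100% in WT. The exon was listed in picln-1 alone, with a log2 usage change of -0.59 in the authors' deposited table (adjusted p = 0.000727). The annotation keeps it in 8 of 10 transcripts of the gene. AT5G05310, a transporter gene, was included at 63.5% in prmt5-5 and 98.4% in picln-1, against 100% in WT. Its next intron was retained at 70.0% in prmt5-5 and 26.5% in picln-1, against 20.4% in WT. This exon and intron adjoin, and their changes were not told apart.

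AT4G33625 was listed in both mutants, with 63.0% in picln-1 and 73.2% in prmt5-5, against 86.4% in WT. The noncoding AT1G25175 was too, with 55.7% in picln-1 and 56.4% in prmt5-5, against 67.1% in WT. AT3G59300, a pentatricopeptide repeat gene, stood at 75.9% in picln-1 and 86.6% in prmt5-5, against 96.3% in WT. AT1G54730 stood at 48.6% in prmt5-5 and 70.8% in picln-1, against 85.6% in WT, and AT3G33530 at 58.8% in prmt5-5 and 60.5% in picln-1, against 77.6% in WT. All 7 exons were thus used in most WT transcripts, and 5 of them have an annotated intron that skips them.

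**Figure D4:**
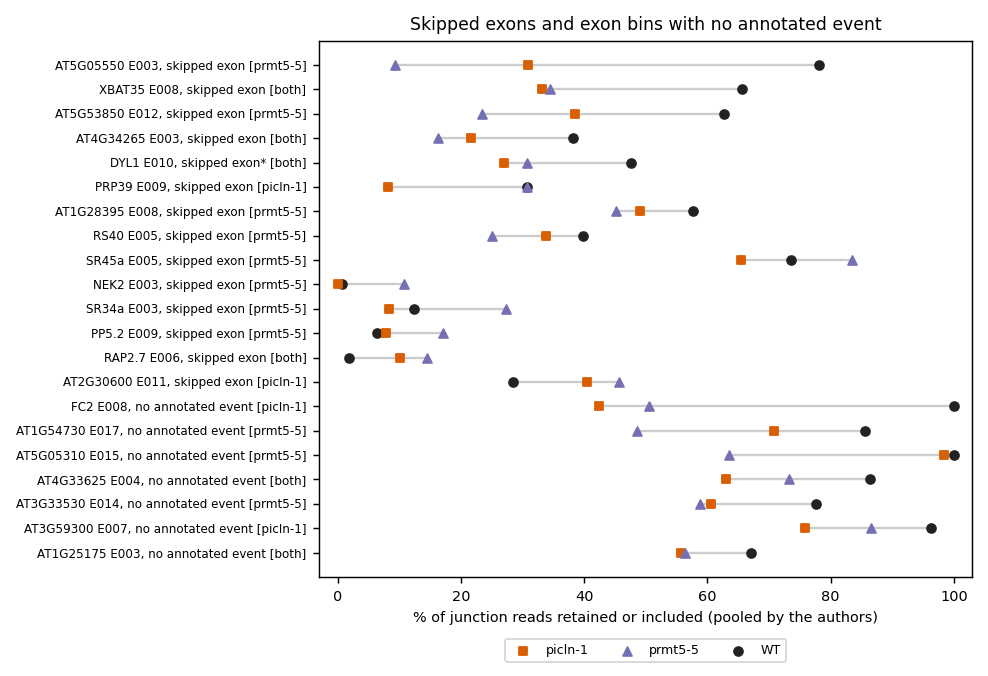
Included share (%) of the 14 cassette exons (upper lines) and the 7 exon bins with no annotated event (lower lines) in picln-1 (squares), prmt5-5 (triangles) and WT (circles), with the mutant that listed the bin in brackets. WT lies to the right of both mutants in all 7 bins with no event, and to the left of both in RAP2.7, PP5.2 and AT2G30600.

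The 5' splice sites of the retained introns were scored and set beside those of annotated introns, as a description with no test. All 151 introns began with GT and ended with AG. The 126 introns retained more in prmt5-5 had a median score of 5.27 bits, the 35 retained more in picln-1 6.34 bits, annotated introns that some annotated exon spans 6.39 bits, and all annotated introns 6.99 bits. The last exon base was G in 61.9% of those retained more in prmt5-5 and in 85.7% of those retained more in picln-1, against 76.2% of all annotated introns. The fifth intron base was G in 30.2% of those retained more in prmt5-5 and in 37.1% (13 of 35) of those retained more in picln-1. It was G in 49.5% of all annotated introns. In annotated introns that some annotated exon spans, G stood at the last exon base in 73.0% and at the fifth intron base in 45.1%. Intron-labelled bins had a median score of 5.26 bits for those retained more in prmt5-5 and 6.50 bits for those retained more in picln-1. Their last exon base was G in 58.3% in prmt5-5 and 70.8% in picln-1, and the fifth intron base was G in 39.4% in prmt5-5 and 52.3% in picln-1, so in picln-1 the base shares of intron-labelled and exon-labelled bins lay on opposite sides of those of all annotated introns.

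Scores were lowest where retention moved most. Of the 126 introns, 49 were retained by over 20 points more in prmt5-5 than in WT and 77 by less. The 49 had a median score of 3.88 bits and the 77 one of 5.68 bits. Neither the last exon base nor the fifth intron base was G in 19 of the 49 introns (38.8%), in 4 of the 77 (5.19%), against 5.78% of all annotated introns and 10.1% of those spanned by an exon. Over all 126 introns the share was 18.3%, and over intron-labelled bins retained more in prmt5-5 it was 18.2%. AT4G03820, AT3G53970, PHOT2 and YAB3, whose sites are printed above, are of this kind. The line at 20 points was chosen after the values were seen, and the groups it makes were not tested.

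**Figure D5:**
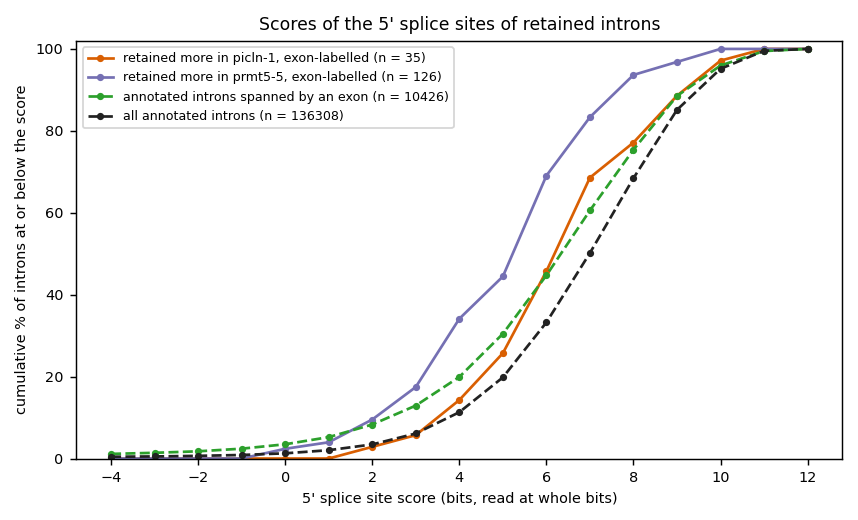
Cumulative share (%) of introns at or below each 5' splice site score (bits, read at whole bits) for exon-labelled introns retained more in picln-1 (35) and in prmt5-5 (126), annotated introns spanned by an exon (10426) and all annotated introns (136308). The prmt5-5 line runs above the others over most of the range, with a median of 5.27 bits, and the picln-1 line runs close to that of the spanned introns (medians 6.34 and 6.39 bits).

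The place of the introns in their genes was read from the annotation. Of the 35 retained more in picln-1, 16 lay within coding sequence, 10 in a 5' untranslated region (UTR) and 9 in a 3' UTR. Of the 126 retained more in prmt5-5, 92 lay within coding sequence, 17 in a 5' UTR, 14 in a 3' UTR and 3 in noncoding transcripts. Annotated introns that an exon spans lay within coding sequence in 56.4%, in a 5' UTR in 27.0% and in a 3' UTR in 10.6%. Read in frame, the intron met a stop codon in 14 of 16 coding introns retained more in picln-1 and in 73 of 92 retained more in prmt5-5 (79.3%), against 74.2% of spanned coding introns in the annotation.

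Expression of the same genes was read from the gene tables. Of 164 genes with an exon-labelled bin listed in prmt5-5, 31 (18.9%) were also listed for expression, 30 of them higher and 1 lower, while 9.14% of all genes tested were listed in prmt5-5, 4.99% higher and 4.15% lower. Genes with an intron-labelled bin were listed in 375 of 2498 (15.01%), 342 higher and 33 lower. The largest log2 changes of the 31 genes with an exon-labelled bin in prmt5-5, from the authors' deposited table, were 1.68 in GLX2-1, 1.43 in NEK2, 1.42 in AT5G05310 and 1.40 in AT4G17150, and the sole lower gene was ASPGA1, an asparaginase, at -0.91. The ASPGA1 intron was retained at 38.6% in prmt5-5 and 8.92% in picln-1, against 6.17% in WT. In picln-1, 1 of 54 genes with an exon-labelled bin (1.85%) was listed for expression, lower, while 1.69% of all genes tested were listed, 0.698% higher and 0.996% lower. Whether reads of a retained intron count toward its gene was not tested.

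Among 47 genes of splice site choice and transcript surveillance, 8 (17.0%) had an exon-labelled bin, against 0.802% of all 24197 genes with an annotated intron, a number that includes genes too low to be tested. A listed bin of either label was present in 9 of the 47 in picln-1 (19.1%) and in 18 in prmt5-5 (38.3%), against 1.94% and 10.7% of all genes with an annotated intron. The 47 genes were chosen with earlier results of these data known, so these shares are a description and were not tested. The 8 genes with an exon-labelled bin included 2 of 8 genes of the U1 snRNP and its LUC7 partners. These were U1-70K and PRP39, both lower in picln-1. The rest were 6 of 20 SR and SR-like genes. Among them, SR30 was lower and RS2Z33 higher in picln-1, and in prmt5-5 SR34a and SR45a were higher and RS2Z32 and RS40 lower. In the authors' deposited table the adjusted p was 0.0598 for RS2Z33, 0.109 for SR45a and 0.0523 for RS40, so these 3 calls do not hold at 0.05, while those of the other 5 genes do. No exon-labelled bin was listed in the 7 genes of U2AF, SF1 and U2 or in the 5 hnRNP-like genes. An intron-labelled bin was listed in 1 of the U2AF, SF1 and U2 genes in picln-1 and in 2 in prmt5-5. For the hnRNP-like genes these counts were 2 in picln-1 and 3 in prmt5-5. No bin of either label was listed in the 7 genes of nonsense-mediated decay and the exon junction complex. In the authors' deposited table, 1 of the 47 genes (2.13%) changed in expression in picln-1, U1-70K (lower), and 4 (8.51%) in prmt5-5, close to the 1.69% and 9.14% of all genes tested. The 4 in prmt5-5 were all higher: SR34a at a log2 change of 0.59, the glycine-rich RNA-binding proteins GRP7 at 0.71 and GRP8 at 0.89, and the polypyrimidine tract-binding protein PTB1 at 1.20.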

How the data were processed

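RNA-seq of 12 libraries, 4 per genotype, was available as 4 deposited comparison tables, with expression of genes and usage of bins for each mutant against WT. The submitters' processing notes name TopHat and TAIR10. The counting and testing programs are not given in the sources used here. Usage and expression changes are log2 fold changes deposited by the authors as mutant over WT, with base 2 assumed because the file headers give none. Per the file headers, the p-value and adjusted p-value of each bin or gene were computed by the authors. The fraction of each bin was deposited by the authors as 1 value per genotype, pooled over its libraries, and was multiplied by 100 to a percentage. The authors listed bins that had an adjusted p below 0.15 and a fraction changed by more than 0.05, and genes at an adjusted p below 0.05. The tables hold no counts per library, no standard errors and no depth, so the planned count test could not be run and values have no error here.

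The number of features tested was recovered by dividing adjusted by raw p and reading the rank, a step that returned the true number in 4 of 4 simulated tables. Bins were matched to the RefSeq annotation of TAIR10.1, and all 151 introns equalled an annotated intron. The region and the exon or intron number refer to the first coding annotated transcript that holds the bin. The 5' splice site score sums log2 ratios of base frequencies over 9 positions to 0.25, from 136308 introns with a pseudocount of 1. Genes were named by a rule: bins listed in both tables, the 4 widest differences per table and event, all bins with no event, bins of the 47 listed genes, bins whose gene changed in expression in the same mutant, and the bins nearest each limit. AT5G17530, AT4G16695, AT4G32900, CHR17, PIN7, RCA, FAC1, SNRK2.2, MAF1, AT3G05560, AT3G10770, AT1G67700, CKB3, AT5G08450, PP5.2, AT1G28395, AT2G16900, AT1G72640 and AT2G30600 fall in part outside it and were chosen after their values were seen. Some bins that the rule covers, such as those of UMAMIT44, AT1G33270 and AT3G14830, are not given above. The members and lists were chosen with earlier results of these data known. Stricter limits, 1 bin per gene, means and leaving out starred events were tried. Python 3.11.15, numpy 2.4.6, pandas 2.3.3 and matplotlib 3.10.9 were used.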

Additional observations from a re-analysis of the deposited data

Results flagged for a closer look

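Intron 1 of AT2G35390 was retained at 14.6% in picln-1 and 88.6% in prmt5-5, against 24.04% in WT, a picln-1 minus prmt5-5 difference of -74.1 points. It is given here because the mutants moved in opposite directions from the same WT, each past the authors' limits. The difference between the mutants was not tested.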

How the results depend on the processing

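With 1 bin per gene or an adjusted p below 0.05, the counts of higher and lower bins and the medians stayed within 1.5 times their values, and so did the medians with starred events left out. Of 111 listed changes of bins that the naming rule covers, 20 were lost at an adjusted p below 0.05 and 42 below 0.01. With a change above 0.1, 19 were lost, and above 0.2, 56. At an adjusted p below 0.01, picln-1 listed 15 higher bins in place of 40 and 10 lower in place of 16, and prmt5-5 listed 21 lower in place of 34. With a change above 0.2, picln-1 listed 12 higher and 10 lower, and prmt5-5 listed 52 higher and 13 lower. With a change above 0.1, the WT median of introns listed in picln-1 was 14.5% in place of 9.19%. With means in place of medians, introns listed in picln-1 stood at 25.4% in prmt5-5, and introns listed in prmt5-5 stood at 18.0% in picln-1, against 13.5% in WT. Fewer bins pass stricter limits by construction, and for the means the cause was not tested. Refits without each replicate and with other normalizations were not run. No paired analysis was possible because the tables hold no values per library. Depth is unknown, so the precision of each share is too.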
